A study of Mus musculus with 12 samples.

Results

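A set of 38 genes that build the neuronal cytoskeleton or run the synaptic vesicle cycle was followed in mouse embryos that lack *Carm1* or *Pax3*. The genes were a list fixed by name, chosen with earlier results of these data known. All 38 were found among the 23420 genes of both count tables. They comprise 13 genes of the cytoskeleton and axon growth, 2 neuronal RNA-binding proteins, 16 genes of the vesicle release machinery and 7 genes of transmitter synthesis and loading. RNA came from homogenized whole embryos at embryonic day (E) 12.5, and each embryo gave 1 library of polyadenylated RNA. The *Carm1* line (strain C57BL/6) gave 3 embryos homozygous for the null allele *Carm1* tm1Mtb (*Carm1* KO/KO) and 3 *Carm1* wild-type embryos. The *Pax3* line (strain mixed, a closed colony) gave 3 embryos homozygous for the Splotch allele *Pax3* Sp2H (*Pax3* Sp2H/Sp2H, also a null) and 3 *Pax3* wild-type embryos. All embryos came from matings of heterozygous parents, so every tissue of a mutant carries its allele. The *Carm1* KO allele is a deletion of 2 exons, and the rest of the transcript can still be counted. A whole embryo mixes neurons with all other tissues, so fewer neurons and less RNA per neuron cannot be told apart.

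Neurons that have left the cell cycle grow axons on microtubules, which stathmins destabilize and tau, doublecortin and MAP2 bind, and then fill the axons with neurofilaments. At the axon ending, synaptic vesicles are loaded with transmitter by vesicular transporters, tethered by synapsins, and fused to the membrane by SNARE proteins under the control of synaptotagmins and complexins. At midgestation these genes mark young neurons of the spinal cord, brain and sensory ganglia. CARM1 is an arginine methyltransferase that acts as a transcriptional coactivator. PAX3 is a transcription factor of the dorsal neural tube, neural crest and early muscle.

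Library sizes ranged from 17183344 to 23518692 counts, and the 38 genes took 0.317 to 0.386% of them. *Carm1* measured 71.3, 69.3 and 76.2 CPM in the mutant libraries and 151, 145 and 137 CPM in wild type, a log2 fold change of -1.0 ± 0.050 (SE, edgeR FDR adjusted *P* = 1.23e-15). *Pax3* measured 22.4, 22 and 18.1 CPM in the mutant libraries and 30.9, 25 and 28.3 CPM in wild type, a log2 fold change of -0.43 ± 0.095 (SE, edgeR FDR adjusted *P* = 0.00142). The groups did not overlap for either targeted gene in its own line. Libraries with over 100 counts on 4 Y-linked genes were *Carm1* wild-type replicate 3, *Pax3* wild-type replicates 2 and 3 and *Pax3* Sp2H/Sp2H replicate 3. In the *Carm1* line a term for Y-linked counts thus sets apart wild-type replicate 3 alone. There it nearly repeats leaving that library out and is not a separate check. The precursor of ribosomal RNA listed as *Rn45s* took 0.374 to 0.381% of the counts in *Pax3* Sp2H/Sp2H and 0.764 to 1.70% in *Pax3* wild-type libraries, and 3.30 to 6.4% in the *Carm1* line, where the groups overlapped. The part of this gap in the results of the *Pax3* line was not tested.

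In *Carm1* KO/KO embryos the genes of the list that passed the test all fell. With the threshold at an FDR adjusted *P* of 0.05, 19 members were lower and 0 were higher in edgeR's test (at an unadjusted *P* below 0.05, the members higher also numbered 0), against 7.83% of the 15811 genes tested that were lower and 5.49% that were higher. Fold changes were modest, with a median log2 fold change of -0.21 for the list against 0.0014 for all genes tested, and with 36 of 38 below 0. The lower genes were 6 of 13 of the cytoskeleton and axon growth (*Stmn2*, *Stmn4*, *Gap43*, *Dcx*, *Mapt*, *Prph*), *Elavl3* of the 2 RNA-binding proteins, 10 of 16 of the vesicle release machinery (*Syt1*, *Syt4*, *Syn1*, *Syn2*, *Syp*, *Cplx2*, *Rab3a*, *Rab3c*, *Sv2a*, *Sv2c*) and 2 of 7 transmitter genes (*Gad1*, *Gad2*). The summed level of the list was 3280 to 3334 CPM (counts scaled to library size after TMM normalization) in mutants and 3624 to 3866 CPM in wild type. All 3 mutant libraries lay below all 3 wild-type libraries for 26 members, and for 0 members above, where 15.7% and 14.2% of all genes tested did so. Without wild-type replicate 2 the count of lower members was 12. Shares over all genes were not taken for fits without a library. A loss particular to the list cannot be told there from a general one. DESeq2 called 13 members lower, with 5.1% of all genes lower in that test.

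In *Pax3* Sp2H/Sp2H embryos members passed in both directions, with higher members about as frequent as higher genes among all genes tested. Lower were 9 members (*Stmn2*, *Dcx*, *Nefl*, *Nefm*, *Ina*, *Elavl4*, *Syt4*, *Syn2*, *Slc17a6*) and 5 were higher (*Stmn3*, *Syp*, *Stx1a*, *Sv2a*, *Slc32a1*), against 10.5% of the 15724 genes tested that were lower and 14% that were higher. The median log2 fold change was -0.069 for the list and -0.0026 for all genes tested. Mutant libraries lay below all wild-type libraries for 10 members and above them for 9, where 18.9% and 20.7% of all genes tested did so. Summed over the list, mutants measured 3182 to 3409 CPM and wild type 3442 to 3692 CPM. The count of lower members was 5 without wild-type replicate 3 or without mutant replicate 2, and that of higher members was 3 without mutant replicate 1. For these fits too the shares over all genes were not taken. When length and GC content of the transcripts were fitted as offsets, the counts were 10 lower and 3 higher, and with GC offsets alone 9 lower and 1 higher (6.97% and 8.51% of all genes in the first of these tests, 9.69% and 9.07% in the second).

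**Figure D1:**
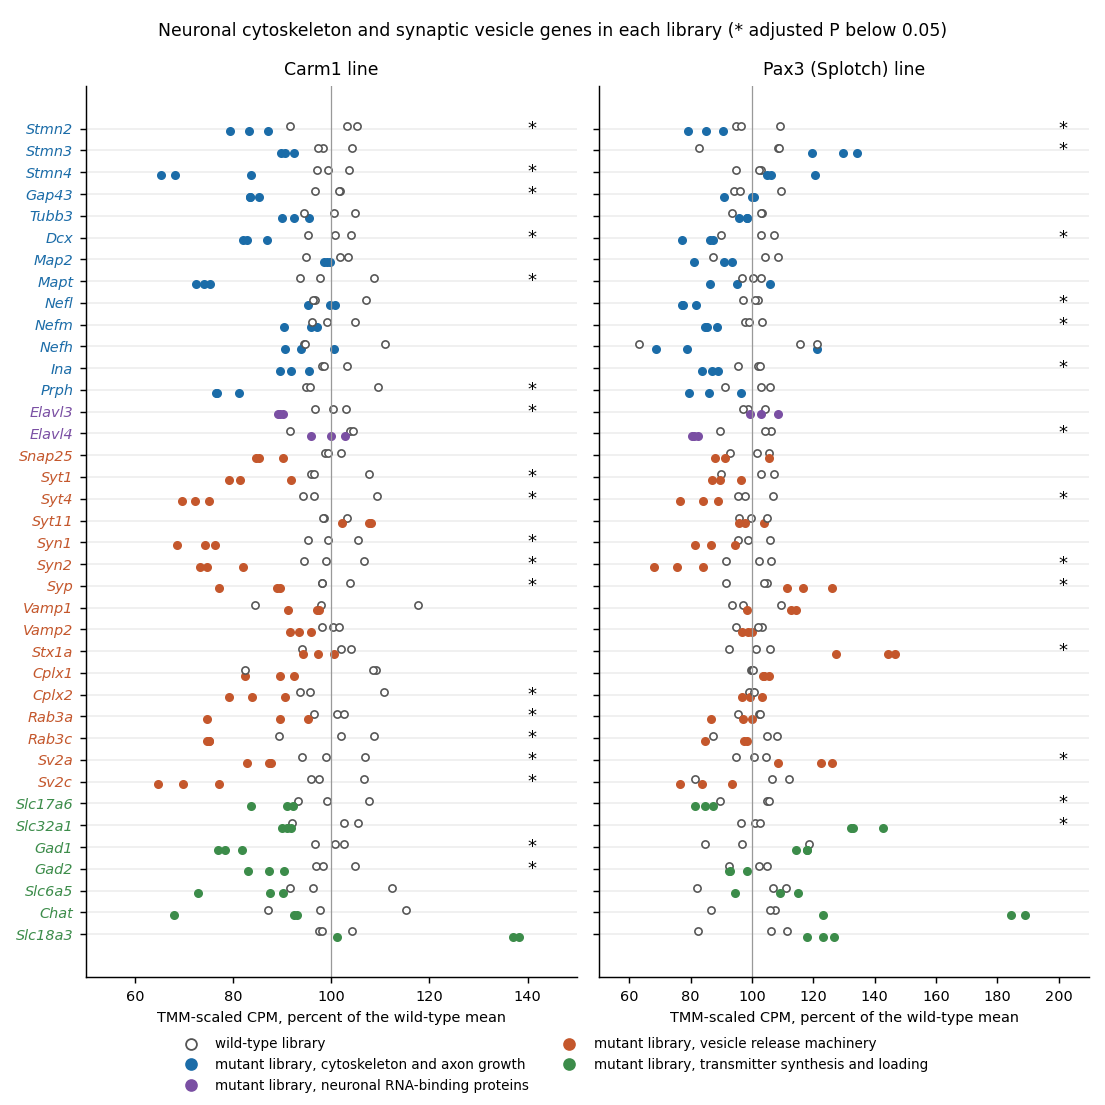
Level of each of the 38 genes in each library, as percent of the wild-type mean of its line (x axis), in the *Carm1* line (left) and the *Pax3* line (right), with open points for wild-type and filled points for mutant libraries and an asterisk for an FDR adjusted *P* below 0.05. In the *Carm1* line the 19 marked genes have all mutant points left of the wild-type points, whereas in the *Pax3* line 9 marked genes lie to the left and 5 to the right.

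Of the 38 genes, 6 passed the threshold in both lines. *Stmn2*, *Dcx*, *Syt4* and *Syn2* fell in both, while *Syp* and *Sv2a* fell in the *Carm1* line and rose in the *Pax3* line. Another 13 passed in the *Carm1* line and not in the *Pax3* line, 8 passed in the *Pax3* line and not in the *Carm1* line, and 11 passed in neither. Of the 15461 genes tested in both lines, 3.73% passed in both (1.21% lower in both, and 0.847% lower in the *Carm1* line and higher in the *Pax3* line), 9.66% in the *Carm1* line alone, 21.1% in the *Pax3* line alone and 65.5% in neither.

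Promoter sequences were taken from a table of RefSeq starts (GRCm38.p6) in which 28 of the 38 genes were matched. Promoters not analysed here are those of *Stmn2*, *Stmn4*, *Gap43*, *Mapt*, *Nefl*, *Nefm*, *Nefh*, *Snap25*, *Syt4* and *Vamp2*. The 250 bases before each start were searched on both strands for 6 motifs, of which none contains another. Windows of the same gene can overlap, as those of *Dcx* do, and each was counted. An E-box (CAGCTG), the kind of motif bound by proneural factors, was in the windows of 11 of 28 members, which is 32.4% of their 37 windows against 13.0% of 32851 windows of all genes. The GC box (GGGCGG) was in 51.4% of the members' windows against 32.7% of all. The median GC content was also higher in the members' windows, at 56.4% against 52.4% in all windows. A CCAAT box was in 35.1% against 33.8%, and a TATA box (TATAAA) in 13.5% against 12.4%. A cAMP response element (TGACGTCA) was found in *Syn1* and in 1.55% of all windows. The core of the RE1 element, which the repressor REST binds in neuronal genes, was found in *Gad2* and in 0.0457% of all windows. Only exact matches to the motifs were counted, and the *Syn1* stretch below holds a near match to this core that was left out. Below are *Dcx* (minus strand, chrX:143933312-143933469), which fell in both lines, *Stx1a* (plus strand, chr5:135023232-135023481), which rose in the *Pax3* line, and *Syn1* (minus strand, chrX:20921005-20921168) and *Gad2* (plus strand, chr2:22622077-22622204), which hold the rarer motifs. Each runs 5′ to 3′ up to the first base that the GENCODE annotation places in an exon, with the motifs above in capitals.
Dcx: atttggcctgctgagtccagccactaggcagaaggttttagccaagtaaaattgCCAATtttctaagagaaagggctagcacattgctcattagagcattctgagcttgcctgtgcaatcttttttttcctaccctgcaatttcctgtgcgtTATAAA
Stx1a: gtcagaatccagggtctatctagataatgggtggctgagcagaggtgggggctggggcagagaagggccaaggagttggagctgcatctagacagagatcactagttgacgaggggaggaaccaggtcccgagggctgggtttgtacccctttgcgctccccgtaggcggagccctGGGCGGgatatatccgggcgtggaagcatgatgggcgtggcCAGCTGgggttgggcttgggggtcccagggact
Syn1: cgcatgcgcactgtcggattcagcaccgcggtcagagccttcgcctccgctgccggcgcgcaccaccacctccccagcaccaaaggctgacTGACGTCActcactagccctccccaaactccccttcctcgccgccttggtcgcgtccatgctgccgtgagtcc
Gad2: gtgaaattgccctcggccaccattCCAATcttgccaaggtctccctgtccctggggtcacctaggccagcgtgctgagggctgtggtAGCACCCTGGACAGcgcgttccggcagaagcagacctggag
The *Dcx* stretch has a CCAAT box, and a TATA box at its 3′ end, and is 42.4% GC, whereas those of *Stx1a* (a GC box and an E-box), *Syn1* and *Gad2* are 62.0, 67.1 and 62.5% GC. These matches are descriptions of the letters and no test of binding.

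The 38 genes spanned a wide range of levels per length of transcript. In *Carm1* wild-type embryos *Tubb3* was highest at 271 ± 14.1 CPM per kb, followed by *Stmn2* at 88.7 ± 6.54 and *Gap43* at 87.7 ± 2.6 CPM per kb, which did not differ beyond their spread (SD, n = 3). Genes of the cytoskeleton and axon growth had a median of 51.8 CPM per kb, those of the vesicle release machinery 10.9 CPM per kb and the transmitter genes 5.67 CPM per kb. *Vamp2* was the highest vesicle gene at 49.7 ± 0.896 CPM per kb, and *Chat* was the lowest of all members at 0.509 ± 0.0722 CPM per kb. *Pax3* wild-type embryos gave medians of 53.8, 9.43 and 4.52 CPM per kb for the same 3 roles, with *Tubb3* again first at 269.7 ± 14.9 and *Chat* last at 0.397 ± 0.0459 CPM per kb. *Mapt* stood at 40.5 ± 3.14 CPM per kb in *Carm1* and 26.6 ± 0.864 CPM per kb in *Pax3* wild-type embryos, which differ in strain and colony, so that no test was made between them. The *Tubb3* count may share reads with other tubulin genes, since how the counting dealt with multiply aligned reads is not given in the sources used here.

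**Figure D2:**
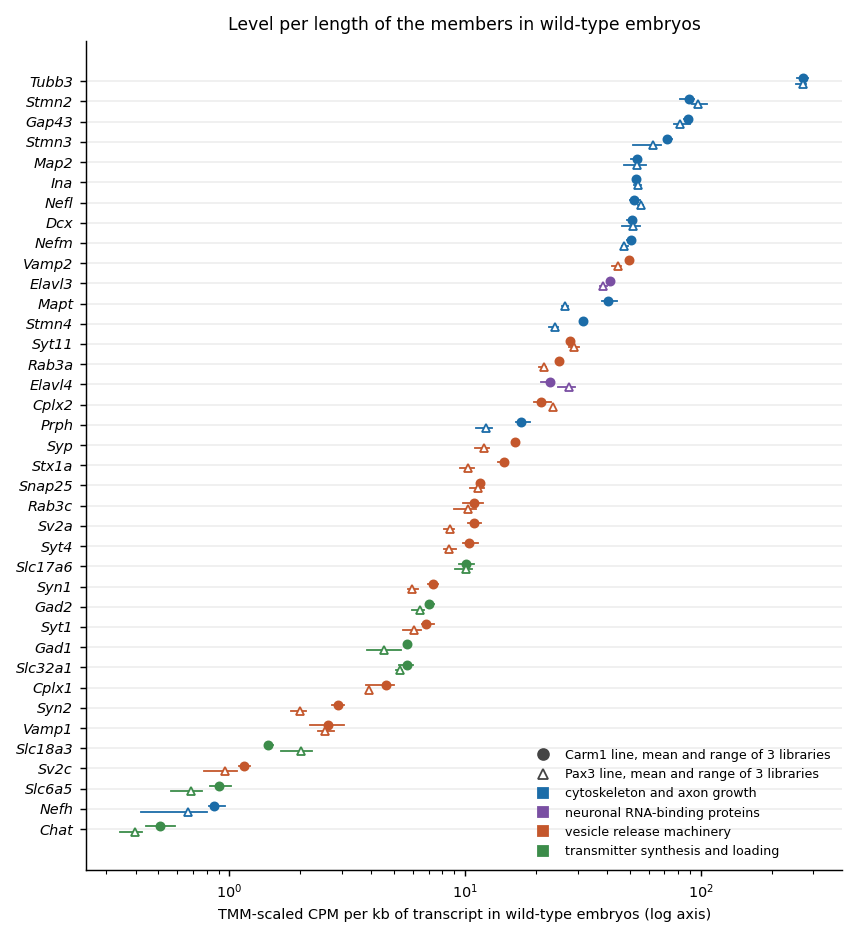
Level of each gene in wild-type embryos in TMM-scaled CPM per kb of transcript (log axis), as the mean and range of 3 libraries, with filled circles for the *Carm1* line and open triangles for the *Pax3* line. Cytoskeletal genes fill the upper part from *Tubb3* down, and *Chat*, *Nefh* and *Slc6a5* are lowest.

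Among the microtubule genes, *Stmn2*, a stathmin of growth cones, fell in both lines (values for replicates 1, 2 and 3 in that order, here and below). It measured 160.3, 153 and 146 CPM in *Carm1* KO/KO and 168, 189.8 and 193 CPM in wild type, a log2 fold change of -0.26 ± 0.050 (SE, edgeR FDR adjusted *P* = 0.000339). In the *Pax3* line it measured 171, 159.8 and 183 CPM in mutants and 191, 194 and 219.8 CPM in wild type, a log2 fold change of -0.24 ± 0.060 (SE, edgeR FDR adjusted *P* = 0.00528). The mutant libraries lay below the wild-type libraries in both lines. The *Pax3*-line call was lost without wild-type replicate 3 (0.0599). Here and below, parentheses after such a setting hold its adjusted *P*.

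*Stmn4*, a further stathmin, measured 29.2, 28 and 35.9 CPM in *Carm1* KO/KO and 44.5, 42.6 and 41.6 CPM in wild type, a log2 fold change of -0.47 ± 0.074 (SE, edgeR FDR adjusted *P* = 3.37e-05). Mutant replicate 3 was the highest of the mutants and still below every wild-type library. *Pax3* Sp2H/Sp2H embryos gave 34.2, 34.6 and 39.3 CPM against 33.6, 30.9 and 33.4 CPM, a log2 fold change of 0.14 ± 0.080 (SE, edgeR FDR adjusted *P* = 0.201), with the mutants above wild type in every library. *Stmn3*, the third stathmin of the list, measured 74, 73.4 and 75.5 CPM against 80.5, 85.3 and 79.7 CPM in the *Carm1* line, where mutants were lowest without passing the test, a log2 fold change of -0.14 ± 0.050 (SE, edgeR FDR adjusted *P* = 0.0587). *Stmn3* there passed with a term for Y-linked counts (-0.16 on the log2 scale, 0.0375), without wild-type replicate 1 (-0.15 on the log2 scale, 0.0382) and without wild-type replicate 3 (-0.16 on the log2 scale, 0.0369). *Stmn3* rose in the *Pax3* line, from 58.5, 76.8 and 77 CPM in wild type to 91.9, 84.6 and 95 CPM, a log2 fold change of 0.36 ± 0.093 (SE, edgeR FDR adjusted *P* = 0.0157). Wild-type replicate 1 was the lowest of these 6 libraries and no mutant reached down to the wild-type values. The call was lost with length and GC offsets (0.607), with length offsets alone (0.155), with GC offsets alone (0.119) and without mutant replicate 1 (0.0515).

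*Dcx* encodes doublecortin, the microtubule-binding protein of migrating neurons. Its level in *Carm1* KO/KO embryos was 379, 402 and 383 CPM, below the 441, 481 and 466 CPM of wild type, a log2 fold change of -0.25 ± 0.045 (SE, edgeR FDR adjusted *P* = 0.000146). It was likewise below wild type in each *Pax3* mutant, at 404, 362 and 409 CPM against 502, 421 and 482 CPM, a log2 fold change of -0.26 ± 0.069 (SE, edgeR FDR adjusted *P* = 0.00719). The *Pax3*-line call was lost with length and GC offsets (0.382), with length offsets alone (0.0949), with GC offsets alone (0.0752) and without mutant replicate 2 (0.0734). *Dcx* is X-linked, as are *Syn1* and *Syp*, and its call remained in both lines when Y-linked counts entered the model. In the *Carm1* line that term sets apart wild-type replicate 3 alone, so sex was not tested there. *Mapt*, which encodes the axonal protein tau, had the lowest adjusted *P* of the list in either line. *Mapt* fell from 208, 231 and 199 CPM in *Carm1* wild type to 158, 160.4 and 154 CPM, a log2 fold change of -0.44 ± 0.048 (SE, edgeR FDR adjusted *P* = 6.9e-08). The wild-type libraries spread more than the mutants and did not overlap them. Among *Pax3*-line embryos the groups overlapped, at 133, 121 and 148 CPM and 140.2, 135 and 144 CPM, a log2 fold change of -0.063 ± 0.062 (SE, edgeR FDR adjusted *P* = 0.495).

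*Gap43*, a phosphoprotein of the growth cone membrane, measured 104, 104 and 106 CPM in *Carm1* KO/KO and 120.3, 127 and 127 CPM in wild type, a log2 fold change of -0.25 ± 0.046 (SE, edgeR FDR adjusted *P* = 0.000197). The mutants lay close together and below all wild-type libraries. For the *Pax3* line the values were 116, 106 and 117 CPM and 109, 112 and 127 CPM, which overlapped, a log2 fold change of -0.042 ± 0.061 (SE, edgeR FDR adjusted *P* = 0.661). *Tubb3*, the neuronal beta-tubulin and the most abundant member per length, passed in neither line. It ranged over 456 to 483 CPM in mutants and 479 to 532 CPM in wild type in the *Carm1* line, a log2 fold change of -0.11 ± 0.046 (SE, edgeR FDR adjusted *P* = 0.113), and over 482 to 495 CPM in mutants and 472 to 521 CPM in wild type in the *Pax3* line, a log2 fold change of -0.038 ± 0.063 (SE, edgeR FDR adjusted *P* = 0.707). Within the *Carm1* line it passed with a term for Y-linked counts (-0.15 on the log2 scale, 0.0149) and without wild-type replicate 3 (-0.15 on the log2 scale, 0.0144). *Map2*, which encodes a microtubule-associated protein of dendrites, ranged over 329 to 333 CPM in mutants and 317 to 345 CPM in wild type in the *Carm1* line, a log2 fold change of -0.013 ± 0.042 (SE, edgeR FDR adjusted *P* = 0.887), and over 273 to 315 CPM in mutants and 294 to 366 CPM in wild type in the *Pax3* line, a log2 fold change of -0.18 ± 0.073 (SE, edgeR FDR adjusted *P* = 0.0839). *Pax3*-line *Map2* passed in one fit of all 12 libraries (-0.19 on the log2 scale, 0.0344) and without wild-type replicate 2 (-0.26 on the log2 scale, 0.006).

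Of the intermediate filament genes, *Nefl*, *Nefm* and *Ina* fell in the *Pax3* line. *Nefl*, the light chain, measured 146, 146 and 154 CPM in *Pax3* Sp2H/Sp2H and 183, 192 and 191 CPM in wild type, a log2 fold change of -0.34 ± 0.052 (SE, edgeR FDR adjusted *P* = 2.01e-05). *Nefm*, the medium chain, measured 149, 154 and 147 CPM and 170.04, 179.8 and 173 CPM, a log2 fold change of -0.21 ± 0.052 (SE, edgeR FDR adjusted *P* = 0.00337). *Ina*, which encodes alpha-internexin, measured 153, 147 and 157 CPM and 179.6, 168 and 180.3 CPM, a log2 fold change of -0.21 ± 0.053 (SE, edgeR FDR adjusted *P* = 0.00505). For these 3 genes no mutant library reached the lowest wild-type library, and the calls remained in every alternative setting tried. Across *Carm1*-line libraries *Nefl* measured 174, 167 and 176 CPM against 169, 187 and 168 CPM and overlapped, a log2 fold change of -0.022 ± 0.047 (SE, edgeR FDR adjusted *P* = 0.821). *Nefm* there gave 179.9, 178 and 167 CPM against 184, 194 and 178 CPM, also overlapping, a log2 fold change of -0.082 ± 0.045 (SE, edgeR FDR adjusted *P* = 0.251). *Ina* gave 164, 158 and 154 CPM against 169, 178 and 169.9 CPM without overlap, a log2 fold change of -0.12 ± 0.044 (SE, edgeR FDR adjusted *P* = 0.0776). *Ina* there passed without wild-type replicate 1 (-0.13 on the log2 scale, 0.0357). *Nefl* and *Nefm* are neighbours on opposite strands (chr14:68083863-68089095 and chr14:68082590-68124846) whose exons share 1108 bases, and *Ina* shares 456 exon bases with *Nt5c2*. The strand setting of the counting is not given in the sources used here, so reads in these stretches cannot be told apart.

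*Prph*, which encodes peripherin, the intermediate filament of peripheral neurons, fell in *Carm1* KO/KO embryos to 26.1, 24.6 and 24.6 CPM from 35.2, 30.5 and 30.7 CPM, a log2 fold change of -0.35 ± 0.074 (SE, edgeR FDR adjusted *P* = 0.00117). Each mutant lay below each wild-type library. Within the *Pax3* line it measured 18.1, 19.6 and 21.9 CPM and 20.7, 23.5 and 24.1 CPM with overlap, a log2 fold change of -0.20 ± 0.091 (SE, edgeR FDR adjusted *P* = 0.119), and it was called lower there with length and GC offsets, at -0.43 ± 0.083 (SE, edgeR FDR adjusted *P* = 0.000595). *Nefh*, the heavy neurofilament chain, was near the lower end of the list, with 3.12 to 3.47 CPM in mutants and 3.26 to 3.83 CPM in wild type in the *Carm1* line and 1.82 to 3.22 CPM in mutants and 1.68 to 3.22 CPM in wild type in the *Pax3* line. Its fold changes were -0.080 ± 0.19 and -0.19 ± 0.25 on the log2 scale (SE), and its 29 to 89 counts per library leave wide errors.

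The 2 RNA-binding proteins of the list, which bind AU-rich elements in neuronal transcripts, moved in different lines. *Elavl3* (HuC) fell in *Carm1* KO/KO embryos, at 184, 186 and 185 CPM against 213, 207 and 199.8 CPM in wild type, a log2 fold change of -0.16 ± 0.043 (SE, edgeR FDR adjusted *P* = 0.0111). This was the smallest change among the called members of that line, with the mutants tightly grouped below wild type. This call was lost without wild-type replicate 2 (0.0638) and without mutant replicate 1 (0.058). *Elavl3* lies on chromosome 9 (chr9:22015005-22052023), where the paper also places *Carm1*, close by. Loss of CARM1 and sequence linked to the targeted allele cannot be told apart for this gene. Across *Pax3*-line libraries *Elavl3* measured 209, 191 and 198 CPM against 190.00, 187 and 201 CPM and overlapped, a log2 fold change of 0.050 ± 0.052 (SE, edgeR FDR adjusted *P* = 0.531). *Elavl4* (HuD) fell in the *Pax3* line instead, at 94.4, 93 and 92.2 CPM against 122, 103 and 119.7 CPM, a log2 fold change of -0.30 ± 0.061 (SE, edgeR FDR adjusted *P* = 0.000617). In the *Carm1* line its groups overlapped, at 94.9, 97.5 and 91 CPM against 87, 98.5 and 99.2 CPM, a log2 fold change of -0.0085 ± 0.052 (SE, edgeR FDR adjusted *P* = 0.943).

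Of the membrane fusion machinery, *Stx1a* (syntaxin 1A, a SNARE protein of the plasma membrane) rose in the *Pax3* line. It measured 28.4, 32.7 and 32.2 CPM in *Pax3* Sp2H/Sp2H and 20.6, 23.6 and 22.6 CPM in wild type, a log2 fold change of 0.48 ± 0.085 (SE, edgeR FDR adjusted *P* = 0.000155). Every mutant exceeded every wild-type library, and the call remained in all alternative settings tried. *Carm1* KO/KO embryos gave 31.8, 29.8 and 30.8 CPM against 32.3, 29.8 and 32.9 CPM with overlap, a log2 fold change of -0.036 ± 0.069 (SE, edgeR FDR adjusted *P* = 0.792). The other SNARE genes passed in neither line. *Snap25* ranged over 20.8 to 22.1 CPM in mutants and 24.3 to 25 CPM in wild type in the *Carm1* line, a log2 fold change of -0.21 ± 0.077 (SE, edgeR FDR adjusted *P* = 0.0717), and 21.1 to 25.3 CPM in mutants and 22.2 to 25.3 CPM in wild type in the *Pax3* line, a log2 fold change of -0.075 ± 0.088 (SE, edgeR FDR adjusted *P* = 0.581). *Vamp1* and *Vamp2*, the SNARE proteins of the vesicle, had log2 fold changes of -0.061 ± 0.14 and -0.094 ± 0.046 (SE) in the *Carm1* line and 0.12 ± 0.12 and -0.022 ± 0.056 (SE) in the *Pax3* line. *Vamp2* lay at 100.4 to 105 CPM in mutants and 107 to 111 CPM in wild type in the *Carm1* line and 94.9 to 98.1 CPM in mutants and 92.9 to 101 CPM in wild type in the *Pax3* line, and *Vamp1* at 7.17 to 7.66 CPM in mutants and 6.63 to 9.25 CPM in wild type and 7.55 to 8.76 CPM in mutants and 7.17 to 8.4 CPM in wild type in the same order.

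Among the synaptotagmins, *Syt4*, a synaptotagmin of dense core vesicles, fell in both lines. It measured 30.3, 29.1 and 28 CPM in *Carm1* KO/KO and 38, 44.2 and 38.9 CPM in wild type, a log2 fold change of -0.47 ± 0.069 (SE, edgeR FDR adjusted *P* = 9.38e-06). *Pax3*-line values were 29.5, 25.5 and 28 CPM and 32.4, 31.7 and 35.6 CPM, a log2 fold change of -0.27 ± 0.083 (SE, edgeR FDR adjusted *P* = 0.02). No mutant library overlapped wild type in either line. This *Pax3*-line call was lost with length and GC offsets (0.231), with GC offsets alone (0.162), without wild-type replicate 3 (0.117), without mutant replicate 2 (0.104) and without mutant replicate 3 (0.055). *Syt1*, the calcium sensor of fast release, measured 26.1, 26.8 and 30.3 CPM in *Carm1* KO/KO and 31.6, 35.6 and 31.8 CPM in wild type, a log2 fold change of -0.25 ± 0.074 (SE, edgeR FDR adjusted *P* = 0.0176). Mutant replicate 3 came nearest to the wild-type libraries without reaching them. Its call was lost with DESeq2 (0.0696), without wild-type replicate 2 (0.165), without mutant replicate 1 (0.125) and without mutant replicate 2 (0.0993). In the *Pax3* line *Syt1* overlapped, at 28.2, 25.4 and 26.1 CPM and 31.3, 26.2 and 30.1 CPM, a log2 fold change of -0.14 ± 0.085 (SE, edgeR FDR adjusted *P* = 0.246). *Syt11*, a synaptotagmin that does not sense calcium, ranged over 143 to 151 CPM in mutants and 137 to 144 CPM in wild type in the *Carm1* line, a log2 fold change of 0.084 ± 0.045 (SE, edgeR FDR adjusted *P* = 0.239), and 139 to 151 CPM in mutants and 139 to 152 CPM in wild type in the *Pax3* line, a log2 fold change of -0.012 ± 0.055 (SE, edgeR FDR adjusted *P* = 0.9). It was 1 of 2 members with a positive fold change in the *Carm1* line.

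The synapsins, which tether vesicles to the actin cytoskeleton, fell in the *Carm1* line. *Syn1* measured 18.1, 16.3 and 17.6 CPM in mutants and 23.6, 25 and 22.6 CPM in wild type, a log2 fold change of -0.45 ± 0.083 (SE, edgeR FDR adjusted *P* = 0.000197). *Syn2* measured 9.11, 8.29 and 8.13 CPM and 10.5, 11 and 11.8 CPM, a log2 fold change of -0.39 ± 0.11 (SE, edgeR FDR adjusted *P* = 0.0207). Neither gene overlapped between the groups. The *Syn2* call was lost with DESeq2 (0.0802), with a term for Y-linked counts (0.0749), without wild-type replicate 2 (0.059), without wild-type replicate 3 (0.0785), without mutant replicate 2 (0.0802) and without mutant replicate 3 (0.0877). In *Pax3* Sp2H/Sp2H embryos *Syn2* fell as well, at 5.81, 5.24 and 6.45 CPM against 7.03, 8.17 and 7.86 CPM, a log2 fold change of -0.39 ± 0.13 (SE, edgeR FDR adjusted *P* = 0.032). That call was lost with DESeq2 (0.0716), with a term for Y-linked counts (0.0802), with length and GC offsets (0.057), with length offsets alone (0.0507), without wild-type replicate 2 (0.0875), without wild-type replicate 3 (0.0856), without mutant replicate 1 (0.0885) and without mutant replicate 2 (0.137). *Syn1* there gave 16.9, 15.8 and 18.4 CPM against 20.6, 19.2 and 18.6 CPM, lower in every mutant without passing the test, a log2 fold change of -0.19 ± 0.090 (SE, edgeR FDR adjusted *P* = 0.122). Exons of *Syn2* share 90 bases with *Timp4* and those of *Syn1* 9 bases with *Araf*, each on the opposite strand.

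Of the integral vesicle proteins, *Syp* and *Sv2a* fell in one line and rose in the other. *Syp* (synaptophysin) fell to 37.4, 32.5 and 37.7 CPM in *Carm1* KO/KO from 43.7, 41.3 and 41.3 CPM, a log2 fold change of -0.23 ± 0.066 (SE, edgeR FDR adjusted *P* = 0.0164). It rose to 36.3, 34.7 and 39.3 CPM in *Pax3* Sp2H/Sp2H from 28.5, 32.7 and 32.3 CPM, a log2 fold change of 0.24 ± 0.082 (SE, edgeR FDR adjusted *P* = 0.0327). The groups stood apart in both lines. The lower call was lost with DESeq2 (0.0608) and without mutant replicate 2 (0.16). The higher call was lost with length and GC offsets (0.212), with GC offsets alone (0.367), without wild-type replicate 1 (0.126), without mutant replicate 1 (0.0691) and without mutant replicate 3 (0.173). *Sv2a*, a vesicle glycoprotein, fell to 41.2, 41.3 and 39.1 CPM from 46.7, 50.5 and 44.4 CPM in the *Carm1* line, a log2 fold change of -0.22 ± 0.062 (SE, edgeR FDR adjusted *P* = 0.0138). It rose to 40.4, 47 and 45.6 CPM from 37.5, 38.9 and 35.4 CPM in the *Pax3* line, a log2 fold change of 0.25 ± 0.078 (SE, edgeR FDR adjusted *P* = 0.0181). No library crossed over to the other group. Its *Carm1*-line call was lost with DESeq2 (0.0554), without wild-type replicate 2 (0.155) and without mutant replicate 3 (0.0846). Its *Pax3*-line call was lost with GC offsets alone (0.0964), without wild-type replicate 3 (0.0608), without mutant replicate 2 (0.102) and without mutant replicate 3 (0.0754). *Sv2c*, a paralog, had the largest fold change of the called members in the *Carm1* line, at 7.3, 8.07 and 6.78 CPM against 10.2, 11.2 and 10.04 CPM, a log2 fold change of -0.51 ± 0.12 (SE, edgeR FDR adjusted *P* = 0.00408). The groups did not overlap. Among *Pax3*-line embryos *Sv2c* overlapped, at 6.66, 7.28 and 8.15 CPM against 9.76, 9.27 and 7.09 CPM, a log2 fold change of -0.23 ± 0.13 (SE, edgeR FDR adjusted *P* = 0.217).

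The RAB3 proteins are GTPases that bring vesicles to release sites. *Rab3c* fell in *Carm1* KO/KO embryos to 69, 69.2 and 69.4 CPM from 82.5, 100.4 and 94.1 CPM, a log2 fold change of -0.42 ± 0.057 (SE, edgeR FDR adjusted *P* = 3.17e-06). The mutants were nearly equal, and all wild-type libraries lay above them. *Pax3*-line values of *Rab3c* overlapped, at 85.4, 73.5 and 84.3 CPM and 90.9, 75.6 and 93.6 CPM, a log2 fold change of -0.099 ± 0.074 (SE, edgeR FDR adjusted *P* = 0.363). *Rab3a* measured 35, 29.2 and 37.2 CPM in *Carm1* KO/KO and 37.7, 39.5 and 40.03 CPM in wild type, a log2 fold change of -0.21 ± 0.072 (SE, edgeR FDR adjusted *P* = 0.0479). Its adjusted *P* was the highest among the calls of the line, and mutant replicate 3 lay just below wild type. The call was lost with upper-quartile factors (0.0517), with DESeq2 (0.154), in one fit of all 12 libraries (0.0819), with a term for Y-linked counts (0.0921), with length offsets alone (0.0622), with GC offsets alone (0.0561), without wild-type replicate 2 (0.154), without wild-type replicate 3 (0.0919), without mutant replicate 1 (0.0871) and without mutant replicate 2 (0.363). Within the *Pax3* line *Rab3a* overlapped, at 32.4, 29 and 33.5 CPM and 31.9, 34.2 and 34.3 CPM, a log2 fold change of -0.080 ± 0.081 (SE, edgeR FDR adjusted *P* = 0.514). Its exons share 29 bases with *Mpv17l2* on the opposite strand.

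Complexins bind the assembled SNARE complex and hold it until calcium enters. *Cplx2* fell in the *Carm1* line to 81.8, 93.5 and 86.6 CPM from 98.9, 114 and 96.6 CPM, a log2 fold change of -0.24 ± 0.060 (SE, edgeR FDR adjusted *P* = 0.00723). Mutant replicate 2 was the highest of the mutants and below all wild-type libraries. This call was lost without wild-type replicate 2 (0.0997) and without mutant replicate 1 (0.07). Across *Pax3*-line libraries the values were 119.5, 115 and 112 CPM and 116, 115 and 117 CPM, with overlap, a log2 fold change of -0.0041 ± 0.054 (SE, edgeR FDR adjusted *P* = 0.967). *Cplx1*, the less abundant complexin per length, ranged over 8.29 to 9.3 CPM in mutants and 8.29 to 11 CPM in wild type in the *Carm1* line, a log2 fold change of -0.18 ± 0.12 (SE, edgeR FDR adjusted *P* = 0.379), and 8.88 to 9.04 CPM in mutants and 8.54 to 8.59 CPM in wild type in the *Pax3* line, a log2 fold change of 0.061 ± 0.11 (SE, edgeR FDR adjusted *P* = 0.743).

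Genes of the inhibitory transmitters GABA and glycine fell or did not pass in the *Carm1* line. *Gad1*, which encodes a glutamate decarboxylase that makes GABA, measured 14.7, 15 and 15.6 CPM in *Carm1* KO/KO and 19.6, 19.2 and 18.4 CPM in wild type, a log2 fold change of -0.34 ± 0.087 (SE, edgeR FDR adjusted *P* = 0.00724). *Gad2*, the second decarboxylase, measured 33.6, 36.6 and 35.4 CPM and 39.2, 42.4 and 39.8 CPM, a log2 fold change of -0.21 ± 0.064 (SE, edgeR FDR adjusted *P* = 0.0277). The groups of both genes stood apart. The *Gad2* call was lost with DESeq2 (0.0985), in one fit of all 12 libraries (0.0505), with length offsets alone (0.0576), without wild-type replicate 2 (0.174), without mutant replicate 1 (0.15) and without mutant replicate 3 (0.0766). *Slc32a1*, the vesicular transporter of GABA and glycine, measured 14.4, 14.6 and 14.3 CPM and 14.6, 16.3 and 16.7 CPM, lower in each mutant without passing the test, a log2 fold change of -0.14 ± 0.093 (SE, edgeR FDR adjusted *P* = 0.348). *Slc6a5*, the glycine transporter of the plasma membrane, gave 5.76, 4.65 and 5.6 CPM and 7.18, 6.15 and 5.85 CPM, a log2 fold change of -0.25 ± 0.15 (SE, edgeR FDR adjusted *P* = 0.291). Its mutants lay below wild type, by a narrow margin for replicate 1.

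*Slc32a1* rose in the *Pax3* line, to 21, 19.5 and 19.6 CPM in mutants from 14.9, 14.2 and 15.1 CPM in wild type, a log2 fold change of 0.44 ± 0.088 (SE, edgeR FDR adjusted *P* = 0.000597). All mutants were well above all wild-type libraries. Its call was lost with GC offsets alone (0.146). *Gad1* measured 17.9, 17.9 and 17.3 CPM and 18, 12.9 and 14.6 CPM, a log2 fold change of 0.22 ± 0.10 (SE, edgeR FDR adjusted *P* = 0.121), and overlapped through wild-type replicate 1. *Gad1* there passed without wild-type replicate 1 (0.36 on the log2 scale, 0.0155). *Gad2* measured 34.1, 34.1 and 36.2 CPM and 38.6, 34.1 and 37.7 CPM, a log2 fold change of -0.081 ± 0.078 (SE, edgeR FDR adjusted *P* = 0.488). *Slc6a5* gave 4.6, 5.33 and 5.6 CPM and 5.42, 5.21 and 4.0 CPM, a log2 fold change of 0.097 ± 0.16 (SE, edgeR FDR adjusted *P* = 0.705), and both of these overlapped.

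*Slc17a6*, the vesicular glutamate transporter of excitatory neurons, fell in the *Pax3* line to 35.4, 34.1 and 36.5 CPM from 43.9, 37.4 and 44.1 CPM, a log2 fold change of -0.24 ± 0.079 (SE, edgeR FDR adjusted *P* = 0.0242). The highest mutant lay just below the lowest wild-type library. The call was lost with length and GC offsets (0.198), with length offsets alone (0.0508), with GC offsets alone (0.125), without wild-type replicate 1 (0.0779), without wild-type replicate 3 (0.11), without mutant replicate 1 (0.0716) and without mutant replicate 2 (0.0975). Within the *Carm1* line it measured 34.9, 38 and 38.4 CPM and 41.3, 44.9 and 38.9 CPM without overlap, a log2 fold change of -0.17 ± 0.066 (SE, edgeR FDR adjusted *P* = 0.0819). *Slc17a6* there passed with a term for Y-linked counts (-0.22 on the log2 scale, 0.0249) and without wild-type replicate 3 (-0.22 on the log2 scale, 0.0242). *Chat*, which makes acetylcholine in motor neurons, held 17 to 48 counts per library. It measured 0.988, 1.34 and 1.36 CPM in *Carm1* KO/KO and 1.42, 1.68 and 1.27 CPM in wild type, a log2 fold change of -0.25 ± 0.30 (SE, edgeR FDR adjusted *P* = 0.651). In the *Pax3* line the values were 2.15, 2.09 and 1.4 CPM and 1.22, 0.985 and 1.2 CPM, a log2 fold change of 0.71 ± 0.27 (SE, edgeR FDR adjusted *P* = 0.0585). The mutants exceeded wild type there without passing the test, and at such counts the SE is wide. *Chat* there passed under a filter of 10 counts per library (0.72 on the log2 scale, 0.043) and without mutant replicate 3 (0.89 on the log2 scale, 0.0397). *Slc18a3*, the vesicular acetylcholine transporter, whose gene lies within *Chat* on the same strand, measured 3.57, 4.87 and 4.83 CPM against 3.68, 3.44 and 3.46 CPM in the *Carm1* line, a log2 fold change of 0.33 ± 0.18 (SE, edgeR FDR adjusted *P* = 0.258). It measured 5.72, 6.15 and 5.98 CPM against 5.42, 5.15 and 4.0 CPM in the *Pax3* line, a log2 fold change of 0.30 ± 0.15 (SE, edgeR FDR adjusted *P* = 0.147). Its groups overlapped in the first line and not in the second.

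Whether an effect differed between the lines was tested as an interaction over all 12 libraries (the *Carm1* log2 fold change minus the *Pax3* log2 fold change). It passed the threshold for 12 of 38 members, with 10 below 0 and 2 above, where 10.5% and 8.65% of the 16292 genes tested did so. The median difference was -0.16 over the list and -0.001 over all genes tested. By role, 4 of 13 cytoskeletal genes, both RNA-binding proteins, 4 of 16 vesicle genes and 2 of 7 transmitter genes differed.

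Differences below 0 were found for *Stmn4* at -0.60 ± 0.11 (SE, edgeR FDR adjusted *P* = 0.000228), *Slc32a1* at -0.57 ± 0.13 (SE, edgeR FDR adjusted *P* = 0.00167) and *Gad1* at -0.55 ± 0.14 (SE, edgeR FDR adjusted *P* = 0.00548). *Stx1a* differed by -0.51 ± 0.11 (SE, edgeR FDR adjusted *P* = 0.00122), a gene called higher in the *Pax3* line. *Stmn3* differed by -0.48 ± 0.10 (SE, edgeR FDR adjusted *P* = 0.00206), and the vesicle proteins *Sv2a* by -0.46 ± 0.094 (SE, edgeR FDR adjusted *P* = 0.000678) and *Syp* by -0.46 ± 0.10 (SE, edgeR FDR adjusted *P* = 0.00168), which had passed with opposite signs in the lines. *Mapt* differed by -0.36 ± 0.085 (SE, edgeR FDR adjusted *P* = 0.00307), *Cplx2* by -0.23 ± 0.082 (SE, edgeR FDR adjusted *P* = 0.0459) and *Elavl3* by -0.20 ± 0.066 (SE, edgeR FDR adjusted *P* = 0.0349), each called in the *Carm1* line. Above 0 were *Nefl* at 0.33 ± 0.069 (SE, edgeR FDR adjusted *P* = 0.000787) and *Elavl4* at 0.31 ± 0.084 (SE, edgeR FDR adjusted *P* = 0.00921), both called lower in the *Pax3* line.

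The *Elavl3* difference was lost with GC offsets alone (0.276), without *Carm1*-line wild-type replicate 1 (0.0802), without *Carm1*-line wild-type replicate 2 (0.0753), without *Carm1*-line mutant replicate 1 (0.0808), without *Carm1*-line mutant replicate 2 (0.0694), without *Carm1*-line mutant replicate 3 (0.0684), without *Pax3*-line wild-type replicate 2 (0.0718), without *Pax3*-line mutant replicate 1 (0.123) and without *Pax3*-line mutant replicate 3 (0.0673). The *Cplx2* difference was lost with DESeq2 (0.0651), with GC offsets alone (0.237), without *Carm1*-line wild-type replicate 2 (0.222), without *Carm1*-line mutant replicate 1 (0.165), without *Carm1*-line mutant replicate 3 (0.0904), without *Pax3*-line wild-type replicate 1 (0.0555), without *Pax3*-line wild-type replicate 2 (0.0668), without *Pax3*-line wild-type replicate 3 (0.0613), without *Pax3*-line mutant replicate 1 (0.116), without *Pax3*-line mutant replicate 2 (0.0637) and without *Pax3*-line mutant replicate 3 (0.0543). The *Stmn3* difference was lost with length and GC offsets (0.105). That of *Slc32a1* was lost with GC offsets alone (0.0716). The other 8 differences passed in all 23 alternatives. *Stmn2* and *Dcx*, which fell in both lines, had differences of -0.018 ± 0.085 (SE, edgeR FDR adjusted *P* = 0.911) and 0.016 ± 0.083 (SE, edgeR FDR adjusted *P* = 0.923).

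**Figure D3:**
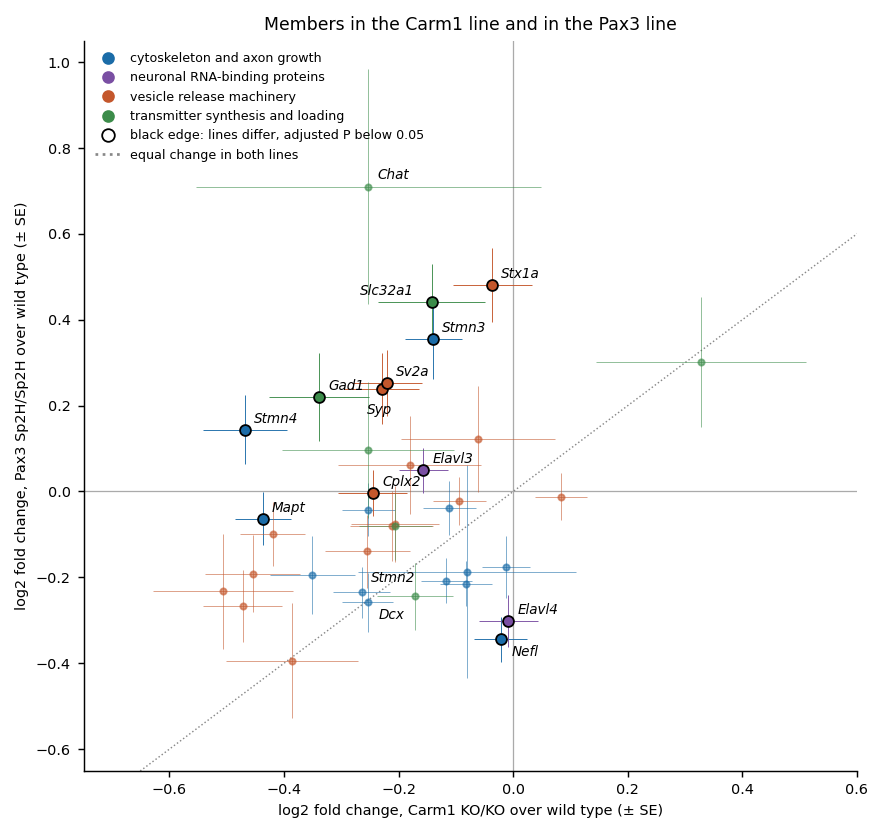
Log2 fold change of each gene in the *Carm1* line (x axis) and in the *Pax3* line (y axis), with bars of ± 1 SE, colours for the roles and a black edge where the lines differed at an FDR adjusted *P* below 0.05. Most points lie left of 0, and the 12 edged points lie off the dotted line of equal change, with *Stx1a*, *Slc32a1* and *Stmn3* above it and *Nefl* and *Elavl4* below.

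Fold changes in the *Pax3* line moved with transcript length and GC content. Over 15608 genes with an annotated transcript, the log2 fold change had a Spearman rho of -0.404 with length and 0.437 with GC content, and over the 38 members -0.322 and 0.505 (genes share libraries and are not independent). The 5 members called higher had a median length of 2591 bases and a median GC content of 57.3%, and the 9 called lower 3854 bases and 46.1%. Over all genes, those called higher had medians of 1820 bases and 55.7%, and those called lower 4751 bases and 45.9%. *Stmn3* is short and GC-rich (1136 bases, 57.3%), whereas *Dcx* is long and AT-rich (9074 bases, 40.6%). Across *Carm1*-line libraries rho was -0.0564 with length and 0.0491 with GC content over all genes, and -0.106 and 0.266 over the members. The part of RNA quality or library preparation in these trends was not tested.

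**Figure D4:**
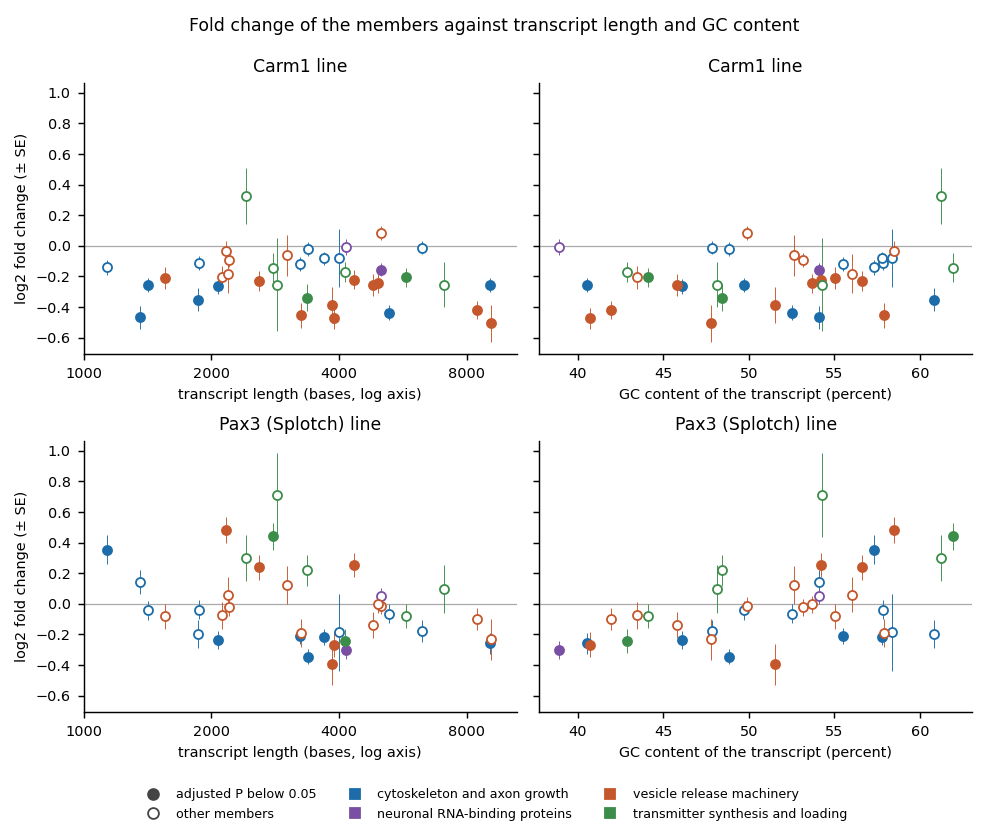
Log2 fold change of the 38 genes (± SE) against transcript length (left, log axis, bases) and GC content (right, percent) in the *Carm1* line (top) and the *Pax3* line (bottom), filled where the FDR adjusted *P* was below 0.05. Filled points in the *Pax3* line lie on both sides of 0 at high GC content and below 0 at low GC content, while those in the *Carm1* line all lie below 0 over the whole range.

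Offsets for length and GC content were fitted in each library, and the tests were repeated. Each fit kept a constant term, so the offsets also moved the general level of a library. That part was not separated from length and GC content. In the *Carm1* line all 19 calls remained, and *Stmn3* and *Ina* were added as lower and *Syt11* as higher, at 0.12 ± 0.037 (SE, edgeR FDR adjusted *P* = 0.02). Among *Pax3*-line embryos 8 of 14 calls remained (*Stmn2*, *Nefl*, *Nefm*, *Ina*, *Elavl4*, *Stx1a*, *Sv2a*, *Slc32a1*). *Elavl4* had a smaller fold with offsets, at -0.14 ± 0.047 (SE, edgeR FDR adjusted *P* = 0.0427). *Stx1a* was then at 0.32 ± 0.077 (SE, edgeR FDR adjusted *P* = 0.00559), *Slc32a1* at 0.27 ± 0.086 (SE, edgeR FDR adjusted *P* = 0.0346) and *Sv2a* at 0.24 ± 0.069 (SE, edgeR FDR adjusted *P* = 0.0185). *Stmn3* fell short at 0.056 ± 0.061 (SE, edgeR FDR adjusted *P* = 0.607), as did *Dcx* at -0.074 ± 0.052 (SE, edgeR FDR adjusted *P* = 0.382). Called lower with the offsets and not without them were *Gap43*, *Tubb3*, *Prph*, *Syn1* and *Rab3a*. *Tubb3* was then at -0.23 ± 0.049 (SE, edgeR FDR adjusted *P* = 0.00188) and *Syn1* at -0.30 ± 0.086 (SE, edgeR FDR adjusted *P* = 0.0189). Over all genes tested in the *Carm1* line, 12.4% were higher and 8.27% lower with offsets, against 5.49% and 7.83% without them. The median log2 fold change over all these genes moved up as well, from 0.0014 to 0.0296. With offsets the cytoskeletal genes had 7 of 13 lower and 0 higher in the *Pax3* line, and the vesicle genes 2 lower and 2 higher of 16, against 6.97% of all genes lower and 8.51% higher in that test. For the difference between the lines 11 of 12 calls remained, that of *Stmn3* was lost, and *Nefm* (0.24 ± 0.058), *Syt4* (-0.29 ± 0.10) and *Rab3c* (-0.43 ± 0.096) were added, against 9.58% of all genes above 0 and 7.64% below.

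**Figure D5:**
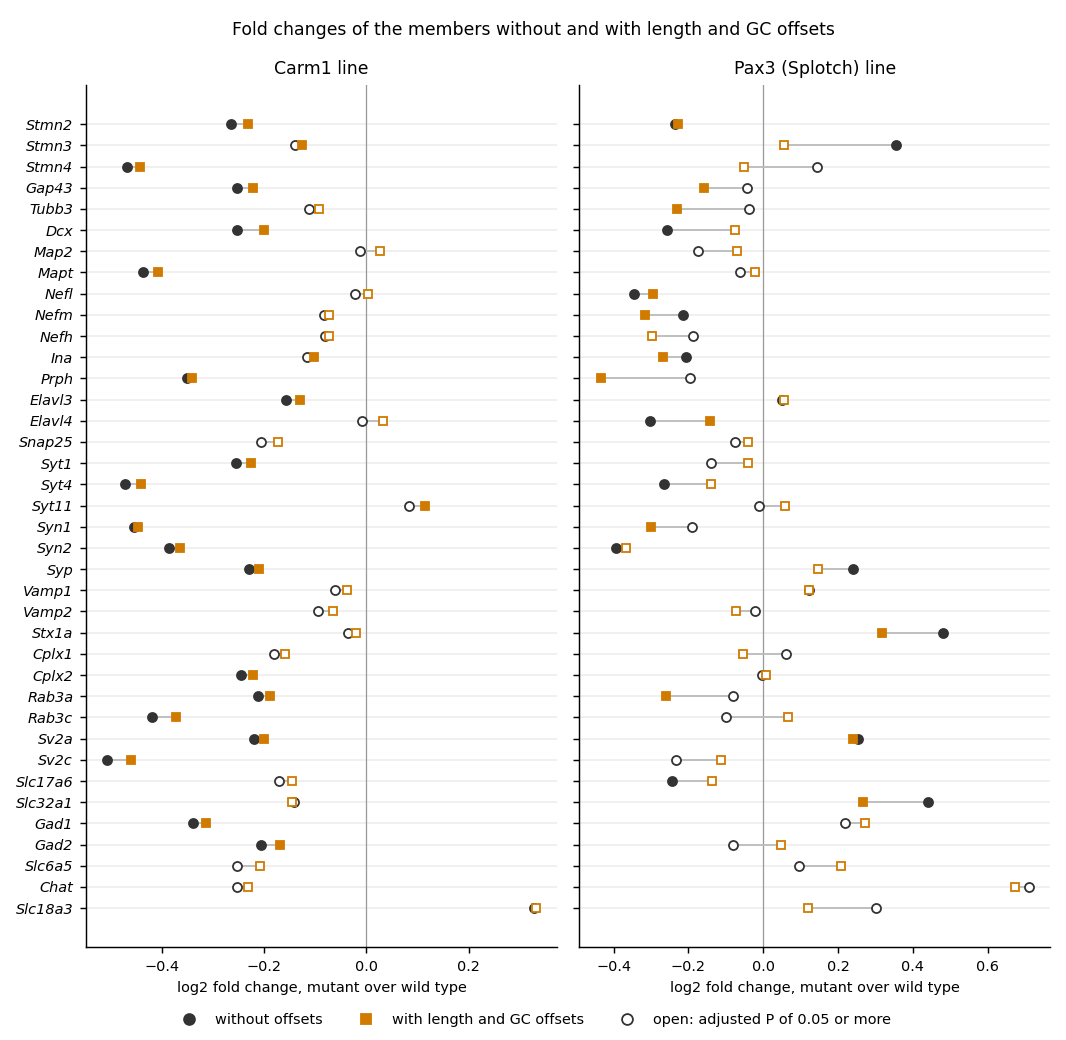
Log2 fold change of each gene without offsets (dark circles) and with length and GC offsets (orange squares) in the *Carm1* line (left) and the *Pax3* line (right), filled where the FDR adjusted *P* was below 0.05. The pairs nearly coincide in the *Carm1* line, while in the *Pax3* line *Stmn3*, *Prph*, *Tubb3*, *Dcx* and *Rab3a* are among those that shift.

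Other genes of the same pathways were read from lists outside the 38. The shares over all genes tested apply to these lists and to the markers below. They were 7.83% lower and 5.49% higher in the *Carm1* line, and 10.5% lower and 14% higher in the *Pax3* line. Of 27 further genes of the axonal cytoskeleton, 8 were lower and 1 was higher in the *Carm1* line (median -0.076), and 7 were lower and 3 higher in the *Pax3* line (median -0.077). *Sptbn4*, a spectrin of the axon initial segment, measured 9.21 ± 0.983 CPM in mutants and 12.1 ± 1.62 CPM in wild type (SD, n = 3), a log2 fold change of -0.38 ± 0.12 (SE, edgeR FDR adjusted *P* = 0.0284) in the *Carm1* line. *Dpysl4*, a collapsin response mediator, was the higher gene there, at 147 ± 2.74 CPM in mutants and 125 ± 11.1 CPM in wild type (SD, n = 3), a log2 fold change of 0.25 ± 0.051 (SE, edgeR FDR adjusted *P* = 0.00105). Within the *Pax3* line *Basp1*, a growth cone protein like *Gap43*, was higher at 592 ± 24.9 CPM in mutants and 446 ± 27.3 CPM in wild type (SD, n = 3), a log2 fold change of 0.41 ± 0.066 (SE, edgeR FDR adjusted *P* = 4.46e-05), and *Dync1i1*, a dynein chain, was lower at 3.0 ± 0.569 CPM in mutants and 5.91 ± 0.101 CPM in wild type (SD, n = 3), a log2 fold change of -0.98 ± 0.17 (SE, edgeR FDR adjusted *P* = 0.0001).

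Of 35 further genes of vesicle release, 8 were lower and 1 was higher in the *Carm1* line, and 5 were lower and 0 higher in the *Pax3* line. *Bsn*, a scaffold of the active zone, rose in the *Carm1* line, at 83.6 ± 0.52 CPM in mutants and 70.2 ± 3.01 CPM in wild type (SD, n = 3), a log2 fold change of 0.25 ± 0.050 (SE, edgeR FDR adjusted *P* = 0.000583). *Sv2b*, the paralog of *Sv2a* and *Sv2c*, fell in the *Pax3* line, at 3.61 ± 0.531 CPM in mutants and 4.96 ± 0.462 CPM in wild type (SD, n = 3), a log2 fold change of -0.46 ± 0.17 (SE, edgeR FDR adjusted *P* = 0.0451). Of 17 further transmitter genes, 15 could be tested in the *Carm1* line, with 2 lower, and 16 in the *Pax3* line, with 1 lower and 1 higher. Across *Pax3*-line libraries the lower gene was *Dbh*, which makes noradrenaline in sympathetic neurons, at 0.488 ± 0.10 CPM in mutants and 2.55 ± 0.375 CPM in wild type (SD, n = 3), a log2 fold change of -2.39 ± 0.30 (SE, edgeR FDR adjusted *P* = 1.41e-06).

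Of 22 proneural and early neuronal factors, 7 were higher and 3 lower in the *Carm1* line (median log2 fold change 0.10), and in the *Pax3* line 2 were higher and 7 lower (median -0.076). *Neurod6*, a factor of differentiating forebrain neurons, fell in the *Carm1* line, at 6.64 ± 1.23 CPM in mutants and 17 ± 1.41 CPM in wild type (SD, n = 3), a log2 fold change of -1.37 ± 0.12 (SE, edgeR FDR adjusted *P* = 6.23e-10). *Atoh1*, a proneural factor of the dorsal neural tube, rose there, at 2.0 ± 0.563 CPM in mutants and 0.828 ± 0.439 CPM in wild type (SD, n = 3), a log2 fold change of 1.22 ± 0.34 (SE, edgeR FDR adjusted *P* = 0.0131). Its level was low, and the lowest mutant library (1.36 CPM) lay just above the highest wild-type library (1.29 CPM). In the *Pax3* line *Neurod1* fell, at 15.1 ± 2.14 CPM in mutants and 22.7 ± 2.16 CPM in wild type (SD, n = 3), a log2 fold change of -0.59 ± 0.10 (SE, edgeR FDR adjusted *P* = 0.000113), and *Insm1*, a factor of newborn neurons, rose, at 59.3 ± 5.58 CPM in mutants and 46.4 ± 3.22 CPM in wild type (SD, n = 3), a log2 fold change of 0.35 ± 0.072 (SE, edgeR FDR adjusted *P* = 0.000738).

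Markers of other cell types moved beside the list. Neural progenitor markers were higher in the *Carm1* line for 9 of 10 genes, with a summed level of 1929 to 2049 CPM in mutants and 1603 to 1654 CPM in wild type, and in the *Pax3* line for 6 of 10 with 1 lower and overlapping sums (1862 to 1991 against 1846 to 1977 CPM). General neuron markers were lower for 6 of 10 in the *Carm1* line (868 to 895 against 998 to 1066 CPM), and 1 was lower and 1 higher in the *Pax3* line (905 to 950.3 against 923 to 964 CPM). Sensory neuron markers were lower for 4 of 10 in the *Carm1* line (185 to 193 against 205 to 225 CPM) and for 6 of 10 in the *Pax3* line (137 to 140.1 against 173 to 184 CPM). Motor neuron markers were 2 higher in the *Carm1* line (206 to 213 against 201 to 209 CPM), and 2 higher and 1 lower of 8 in the *Pax3* line (191 to 206 against 215 to 226 CPM). Schwann cell precursor markers did not pass for any of 8 genes in the *Carm1* line and were lower for 4 in the *Pax3* line (87.1 to 91.7 against 118 to 125 CPM). Skeletal muscle markers were lower for 5 and 6 of the 7 tested in the *Carm1* and *Pax3* lines, hepatocyte markers for 8 of 8 in the *Carm1* line and for 1, with 1 higher, in the *Pax3* line (sums in mutants were below wild type in both lines for both lists), and erythroid markers for 4, with 1 higher, of 7 in the *Carm1* line and for none in the *Pax3* line. No marker of these lists that the tables hold was at 0 in all libraries of a line. The part of cell composition in the changes of the 38 genes was not tested.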

How the data were processed

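RNA was measured in 12 whole E12.5 embryos, 3 per genotype in each line. Per the labels, libraries were enriched for polyadenylated RNA, sequenced in pairs and made from RNA chosen for high integrity. The deposited values are raw read counts per gene, which the authors made with STAR and featureCounts on mm10 (the submitters' processing notes). Versions, strand setting and the treatment of multiply aligned reads are not given in the sources used here. No column of another kind was used.

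The counts of each line were filtered with filterByExpr, scaled by TMM and tested with edgeR 4.0.16 (robust quasi-likelihood test, R 4.3.3), with Benjamini-Hochberg adjustment over all genes tested and a threshold of 0.05. The design was genotype alone. The difference between the lines was an interaction term over all 12 libraries. CPM values are TMM-scaled within a line. Of the 38 genes, all passed the filter in both lines. Replicates are separate embryos, and an exact permutation test of 3 against 3 cannot go below 0.1, so none was made. Library sizes of 17183344 to 23518692 counts set the precision, with 17 to 48 counts for *Chat*.

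Transcript length and GC content came from GENCODE M21 (GRCm38), and promoters from RefSeq (GRCm38.p6). Length and GC offsets were splines with 5 degrees of freedom in each library, fitted to each gene's deviation from its line's mean log count. The constant term of each fit was kept, so the offsets also rescaled the libraries on top of TMM. Alternatives were DESeq2 1.42.0, other scaling factors, no filter or a minimum of 10 counts in each library, both lines in one model, a replicate block, a term for libraries with at least 100 Y-linked counts, offsets, and leaving out each library. Length offsets alone and GC offsets alone were added after the data had been seen. The main code was also run on simulated counts with the same spread for every gene and, in some runs, a trend with length. No trend with GC content was simulated, so the offsets were not tried on a trend of that kind. All 38 members are described, with every library's value for the transmitter genes and for members called in either line or in the interaction. From each further list the called gene with the largest change in each direction and line is named, if its groups stood apart and it averaged 1 CPM or more. Of the genes this rule names, 3 are not reported here. The members and lists were chosen with earlier results of these data known.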

Additional observations from a re-analysis of the deposited data

Results flagged for a closer look

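For 12 members the change in *Carm1* KO/KO embryos differed from that in *Pax3* Sp2H/Sp2H embryos in the interaction test of edgeR, each with an adjusted *P* below the threshold of 0.05, where 10.5% of all genes tested differed below 0 and 8.65% above. Values are the *Carm1* log2 fold change minus the *Pax3* log2 fold change with its SE. Among cytoskeletal genes the difference was -0.48 ± 0.10 for *Stmn3*, -0.60 ± 0.11 for *Stmn4*, -0.36 ± 0.085 for *Mapt* and 0.33 ± 0.069 for *Nefl*. The RNA-binding proteins lay on opposite sides of 0, with -0.20 ± 0.066 for *Elavl3* and 0.31 ± 0.084 for *Elavl4*. Of the vesicle genes, *Syp* differed by -0.46 ± 0.10, *Stx1a* by -0.51 ± 0.11, *Cplx2* by -0.23 ± 0.082 and *Sv2a* by -0.46 ± 0.094. Of the transmitter genes, *Slc32a1* differed by -0.57 ± 0.13 and *Gad1* by -0.55 ± 0.14. The lines also differ in strain and colony, which cannot be told apart from the mutated gene in this comparison.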

How the results depend on the processing

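The members' median log2 fold change stayed below 0 in every alternative for both lines and for the difference between them. In the *Carm1* line 11 of 19 calls passed in all 18 alternatives, in the *Pax3* line 4 of 14 (*Nefl*, *Nefm*, *Ina*, *Stx1a*), and for the difference 8 of 12 in 23. Leaving out 1 library gave 12 (without wild-type replicate 2) to 21 lower members in the *Carm1* line, and 5 to 9 lower and 3 to 5 higher in the *Pax3* line. Shares over all genes were not taken for these fits, so a general change in the number of calls cannot be told apart. With length and GC offsets, alone or with the replicate block, and with GC offsets alone, 1 *Carm1*-line member was higher. The shares over all genes tested were 12.4, 12.3 and 9.91% in that order. The *Pax3* line had 3 higher members with length and GC offsets and 1 with GC offsets alone, where 8.51% and 9.07% of all genes were higher. The difference had 4 members above 0 with GC offsets alone and with offsets and the replicate block, where 11.6% and 9.1% of all genes were. The labels join same-numbered embryos by number only. Correlations of their deviations were -0.0534 to -0.00163 in the *Carm1* line and -0.0793 to 0.252 in the *Pax3* line. Embryos with different numbers gave -0.0141 to 0.0592 and -0.356 to 0.244 in the same order. With the replicate block 18 members were lower in the *Carm1* line (*Rab3a* lost), 10 lower and 5 higher in the *Pax3* line (*Map2* added), and 11 below and 2 above 0 for the difference (*Rab3c* added), and on its own it changed no other call. The shares over all genes tested were 6.84% lower in the *Carm1* line, and 11.7% lower and 14.8% higher in the *Pax3* line. For the difference they were 10.5% below and 8.5% above 0. Added to the length and GC offsets, the block ended the *Elavl4* call of the *Pax3* line (-0.141, adjusted *P* = 0.0534) and added *Gad1* as higher there (0.28, 0.0436). Signs changed only for members not called either way, with adjusted *P* from 0.41 upward. For the *Carm1* line these log2 fold changes were 0.0226 with the Y-linked term for *Elavl4*. *Map2*, *Nefl* and *Elavl4* reached 0.0262, 0.00302 and 0.0317 with length and GC offsets, and 0.0278, 0.00449 and 0.0327 with the block added. GC offsets alone gave 0.0193, 0.0101 and 0.0374, and length offsets alone 0.0246 for *Map2* and 0.0141 for *Elavl4*. In the *Pax3* line *Cplx2* was at 0.00589 with no filter and 0.00357 with at least 10 counts in every library. With length and GC offsets *Stmn4*, *Syt11*, *Cplx1*, *Cplx2*, *Rab3c* and *Gad2* were at -0.0526, 0.0585, -0.054, 0.00791, 0.0669 and 0.0465, and with the block added at -0.0507, 0.0594, -0.0531, 0.00791, 0.0702 and 0.0472. Length offsets alone gave -0.0454 for *Stmn4*, 0.00624 for *Mapt*, 0.051 for *Syt11*, 0.057 for *Cplx2* and 0.00975 for *Rab3c*. GC offsets alone gave -0.0279 for *Elavl3*, 0.00349 for *Snap25* and -0.0604 for *Cplx1*. Leaving out 1 library moved *Elavl4* from -0.0644 to 0.0226, *Map2* from -0.0488 to 0.0142, *Nefh* from -0.123 to 0.00884, *Nefl* from -0.0494 to 0.0335 and *Vamp1* from -0.168 to 0.0602 in the *Carm1* line. In the *Pax3* line it moved *Cplx2* from -0.0284 to 0.016, *Gap43* from -0.0842 to 0.0332, *Mapt* from -0.144 to 0.00555, *Slc6a5* from -0.0341 to 0.187, *Syt11* from -0.0466 to 0.027 and *Vamp2* from -0.0517 to 0.000826. The cause of these shifts was not tested. Depth limits *Chat* and *Nefh* most, at under 100 counts in every library.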
